A study of Mus musculus with 3 samples.

Results

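Acta2, whose promoter drove the Cre label in these mice, and 9 other genes of the smooth muscle contractile apparatus (Tagln, Cnn1, Myl9, Mylk, Myh11, Cald1, Tpm1, Tpm2 and Synpo2) were followed by symbol through 3 single-cell libraries. They are 10 of the 27998 genes listed in the count matrices. Transcripts were counted as unique molecular identifiers (UMIs), where 1 UMI stands for 1 captured molecule. The cells came from the subventricular zone on the lateral wall of the lateral ventricles of adult mice (5 mice for the study) and were loaded on the 10x Chromium 3' v2 platform after fluorescence sorting. All mice carried aSMACreERT2, a tamoxifen-activated Cre under the Acta2 promoter, with Rosa26-tdTomato, together with the GFP knock-in at Sox2 of the line B6;129S-Sox2tm2Hoch/J, on a background of C57/Bl6 (3/4) and 129S1SvlmJ (1/4). No source used here gives the age in weeks or the tamoxifen schedule. The tdTomato-positive/GFP-positive gate gave 1 library from 1200 sorted cells, and the tdTomato-negative/GFP-positive gate gave 2, from 1200 (library 1) and 6000 (library 2) sorted cells.

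The sort limits what the libraries can show. Per the labels, cortical tissue, which lacks ependymal cells, was sorted alongside to set gates between 2 subpopulations of tdTomato-positive cells, and every library was also gated on GFP, so the number of vascular mural cells in the libraries is set in part by the gates. tdTomato marks cells in which Cre acted at or after tamoxifen and in their descendants, so it need not match Acta2 at the time of sorting. Neither tdTomato nor GFP has an entry in the matrices. Whether each library had its own animals is not stated, and p-values here thus measure the spread between samples only, which may be technical.

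Acta2 encodes smooth muscle alpha-actin, the thin-filament actin of vascular smooth muscle. Force in smooth muscle comes from myosin sliding on that actin once the myosin regulatory light chain (Myl9) is phosphorylated by myosin light chain kinase (Mylk), while tropomyosins, caldesmon and calponin sit on the filament and modulate it. Many of these genes are controlled by serum response factor (SRF), which binds a short promoter element called the CArG box. Ependymal cells are the multiciliated epithelium that lines the ventricles. Their ciliary genes depend on the transcription factor Foxj1.

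The windows below show where CArG boxes lie before the RefSeq starts of Acta2 and Myl9, the members with a match of the 8 searched (RefSeq sequences, build GRCm38.p6). The 250 bases before each start were searched for the CArG box on both strands, on which the element reads alike, allowing at most 1 departure from A or T in its core. Each line runs 5′ to 3′ on the gene's strand with the element in capitals.
Acta2, chr19:34255438-34255467, minus strand: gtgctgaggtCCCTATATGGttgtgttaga
Acta2, chr19:34255388-34255417, minus strand: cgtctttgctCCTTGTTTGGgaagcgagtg
Myl9, chr2:156775293-156775322, plus strand: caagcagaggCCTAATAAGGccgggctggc
Myl9, chr2:156775355-156775384, plus strand: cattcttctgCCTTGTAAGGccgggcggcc

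The elements of Acta2 begin at -84 and -34 from its RefSeq start, each with 1 departure from A or T. Both lie within the Acta2 gene as bounded by GENCODE, chr19:34241090-34255590. Those of Myl9 begin at -161, with an exact match, and at -99, with 1 departure. An exact element stood in 482 of 32851 RefSeq promoters (1.47%), and an element with at most 1 departure in 2823 (8.59%). Windows of 8 members were searched, without Tagln and Myh11, and no match was found in those of Synpo2, Tpm1, Tpm2, Cald1, Cnn1 and Mylk. A match describes these letters and does not show binding.

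A barcode was kept as a cell if it had 300 or more detected genes and no more than 25% mitochondrial UMIs: 252 of 314 in the tdTomato-positive library, against 256 of 259 and 1121 of 1127 in tdTomato-negative libraries 1 and 2. Kept tdTomato-positive cells held 720340 UMIs, against 926246 and 3585917 UMIs for tdTomato-negative libraries 1 and 2. Their median mitochondrial share was 8.27% in the tdTomato-positive library, against 3.22% and 3.38% in the tdTomato-negative libraries. Cells were clustered without the 10 members and 47 other contractile genes, and clusters were named from marker genes. The ependymal-like cluster (led by Ccdc153, Rarres2 and Mia) held 177 tdTomato-positive cells, against 12 and 45 cells of tdTomato-negative libraries 1 and 2. The libraries shared between 0 and 2 barcodes per pair.

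Acta2 was found mainly in ependymal-like cells, the ventricular lining. Of its 441 UMIs in kept cells, 416 (94.3%) were in the 234 ependymal-like cells. In tdTomato-negative libraries 1 and 2 the ependymal-like cells held 16 of 20 and 44 of 55 Acta2 UMIs (80.0% in each). In the tdTomato-positive library alone these cells held 356 of 366 Acta2 UMIs (97.3%), spread over 124 of the 134 cells with any. Of those 124 cells, 122 also held a UMI of Foxj1 or Ccdc153, which mark ciliated ependymal cells. Both genes were among the markers used to cluster and name the class, so this share is no separate evidence. Ccdc153 was also in 48 of the 53 tdTomato-positive ependymal-like cells without Acta2.

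The level of Acta2 in ependymal-like cells was 605 CPM (UMIs per 1000000 UMIs of the summed cells; exact 95% Poisson interval 544 to 671) in the tdTomato-positive library, against 356 CPM (203 to 578) and 253 CPM (184 to 340) in tdTomato-negative libraries 1 and 2. All 3 values lay above every other class in any library. The next highest were the tdTomato-positive astrocyte-like cells, at 156 CPM from 5 UMIs, and the 8 mural-like cells, at 126 CPM from 1 UMI. That 1 UMI is too few to place the mural-like cells below the ependymal-like cells. Within the tdTomato-negative libraries, Acta2 did not pass 21.4 CPM in any class but the ependymal-like cells. By mean over libraries, among classes with at least 10 cells, the order below the ependymal-like cells was microglia-like, endothelial-like, astrocyte-like and oligodendrocyte-like, with at most 7 UMIs in any of these classes. The neighbours in that order overlapped within their counting intervals. All intervals given here cover counting error only.

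**Figure D1:**
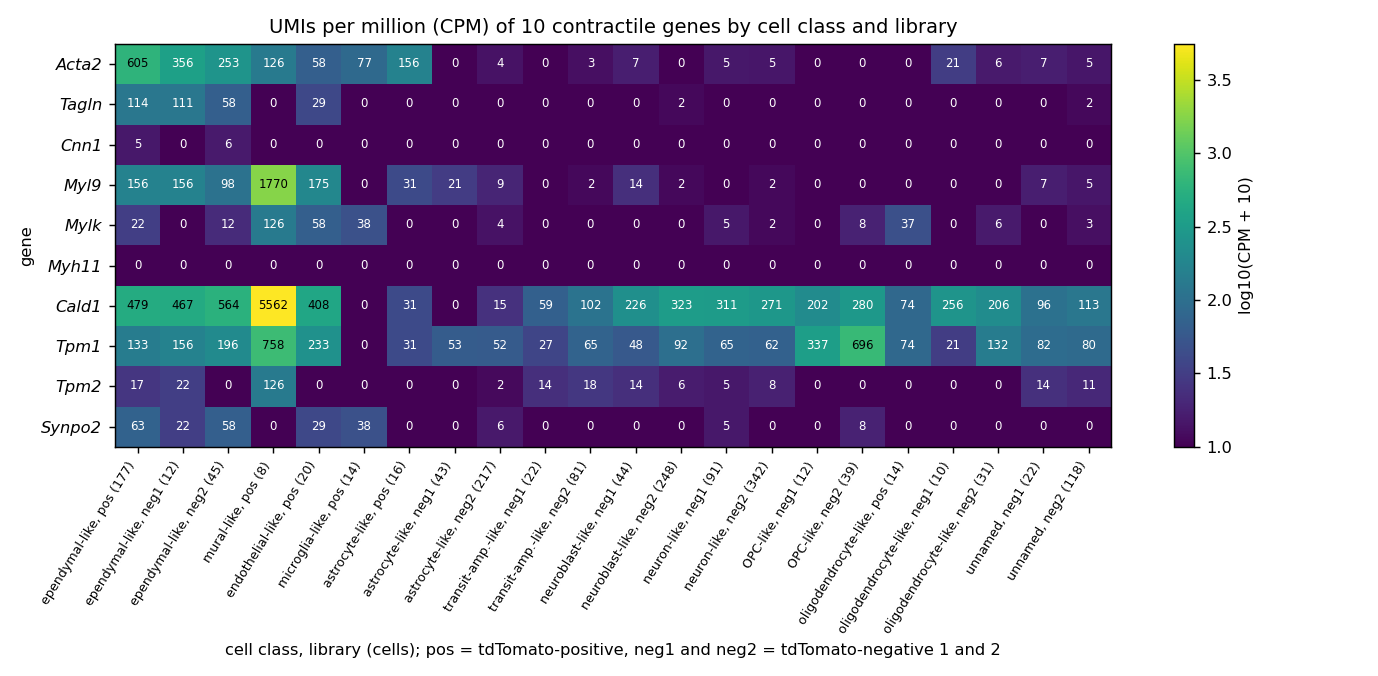
CPM of the 10 genes (rows) in summed cells of each class and library (columns, cell numbers in brackets); colour is log10(CPM + 10) and the printed number is CPM. Acta2 and Tagln were highest in the 3 ependymal-like columns, and Myh11 was at 0 throughout. Myl9, Cald1, Tpm1, Tpm2 and Mylk were highest in the 8 mural-like cells, Tpm1 from 6 UMIs and Tpm2 and Mylk from 1 UMI each.

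Acta2 was found in 70.1% of tdTomato-positive ependymal-like cells (124 of 177; exact Clopper-Pearson 95% interval 62.7% to 76.7%), against 41.7% (5 of 12; 15.2% to 72.3%) and 44.4% (20 of 45; 29.6% to 60.0%) in tdTomato-negative libraries 1 and 2. The median depth of these cells ran the other way, at 3284 UMIs in the tdTomato-positive library, against 4069 and 4304 in the tdTomato-negative libraries. At an equal depth of 1000 UMIs per cell, taken as the expected share over all possible draws of 1000 UMIs, the shares were 41.7% of 160 tdTomato-positive cells (34.0% to 49.8%), against 27.97% of 11 (6.36% to 61.6%) and 19.9% of 45 (9.502% to 34.5%) tdTomato-negative cells. The tdTomato-positive share was the highest at either depth. Its interval was apart from that of library 2 at full depth but overlapped both tdTomato-negative intervals at 1000 UMIs. As a measure of background in the tdTomato-negative libraries, 1.94% of the 103 transit-amplifying-like cells (2 cells; median 8101 UMIs) and 1 of 293 neuroblast-like cells (median 2493 UMIs; 1 of the 293 cells was tdTomato-positive) held an Acta2 UMI. Among oligodendrocyte-like cells it was 1 of 10 and 1 of 31 in tdTomato-negative libraries 1 and 2, and among unnamed cells 1 of 22 and 3 of 118. In the tdTomato-positive library it was 2 of 14 microglia-like cells (14.3%, interval 1.78% to 42.8%, median 1681 UMIs). Of the endothelial-like cells there it was 2 of 20 (10.0%, interval 1.23% to 31.7%, median 1072 UMIs), and of the oligodendrocyte-like cells 0 of 14. The tdTomato-negative libraries held no microglia-like or endothelial-like cells to set beside these.

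Single ependymal-like cells carried few Acta2 molecules. Of the 177 tdTomato-positive cells, 53 had 0 UMIs, 43 had 1, 28 had 2, 25 had 3, 10 had 4 and 18 had at least 5, with a maximum of 20. Among the 45 cells of tdTomato-negative library 2, 25 had 0 and 2 had at least 5, with a maximum of 9. In library 1, 7 of 12 cells had 0 and 1 had at least 5. The distributions overlapped, and cells without an Acta2 UMI were present in every library.

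**Figure D2:**
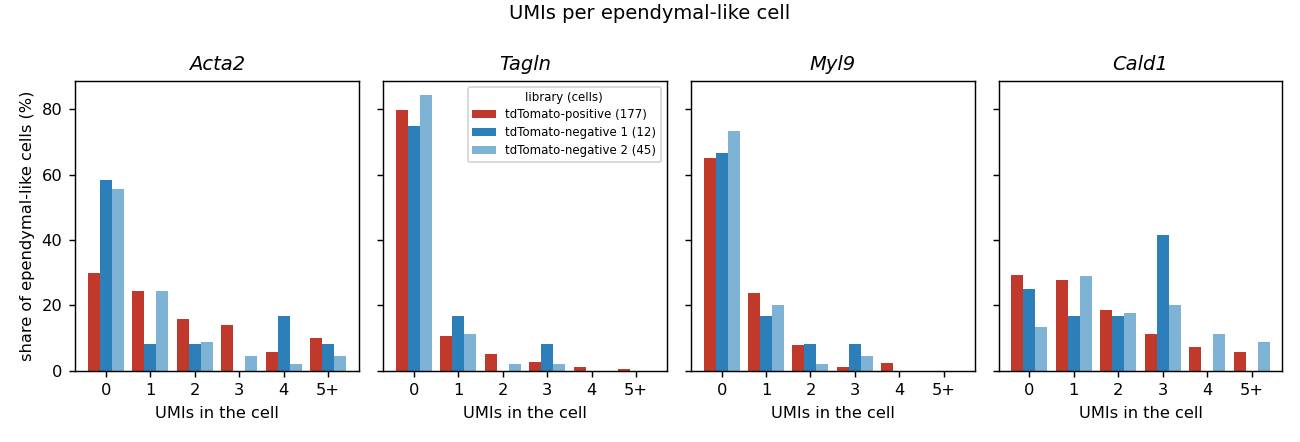
Share of ependymal-like cells (y axis, %) by the number of UMIs in the cell (x axis) for Acta2, Tagln, Myl9 and Cald1, with 1 bar per library. For Acta2 the tdTomato-positive bar is the lowest at 0 UMIs (53 of 177 cells), whereas for Tagln and Myl9 most cells of each library had 0.

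Of the tdTomato-positive astrocyte-like cells, 5 of 16 held an Acta2 UMI (31.2%; 11.02% to 58.7%), against 0 of 43 and 2 of 217 in tdTomato-negative libraries 1 and 2. A count of 0 among 43 cells allows a share of up to 6.98%, which is 3 counts of the total. The tdTomato-positive interval overlapped those of the microglia-like and endothelial-like cells of the same library, and at 1000 UMIs per cell the expected share was 16.3% of 12 cells (1.97% to 48.0%). Of the 5 cells, 4 also held a UMI of Foxj1 or Ccdc153. The 16 cells held 1.25 Acta2 UMIs per Ccdc153 UMI (4 Ccdc153 UMIs), against 0.218 in tdTomato-positive ependymal-like cells, and 0.357 per Rarres2 UMI (14 Rarres2 UMIs), against 0.155. Per Ccdc153 and per Rarres2 UMI, the values were 0.667 and 0.286 in endothelial-like and 0.500 and 0.250 in microglia-like cells of that library. They were 1.00 and 0.0667 in mural-like cells and 0 in oligodendrocyte-like cells. These classes held at most 2 Acta2 and 4 Ccdc153 UMIs each, so a higher ratio was not particular to astrocyte-like cells. The part of RNA from ependymal cells in the 5 Acta2 UMIs of the astrocyte-like cells was not tested. Both astrocyte-like clusters were present in each library, with 13 of the 16 tdTomato-positive cells in the cluster led by Slc7a10 and Htra1.

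Tagln, which encodes the actin-binding protein transgelin (SM22), followed Acta2 at a lower level. Of its 85 UMIs, 82 were in ependymal-like cells. It reached 114 CPM (88.3 to 145) in tdTomato-positive ependymal-like cells, against 111 CPM (36.1 to 260) and 57.5 CPM (27.6 to 106) in tdTomato-negative libraries 1 and 2. These 3 intervals overlapped. Tagln had 0 UMIs in the 8 mural-like cells and in all 276 astrocyte-like cells. The mural-like cells held 7911 UMIs in all, too few for this 0 to set them below ependymal-like cells. Cnn1, which encodes calponin, had 4 UMIs in all, each in a separate ependymal-like cell, 3 of them tdTomato-positive and 1 in tdTomato-negative library 2.

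Myosin genes were detected unevenly. Myl9, the regulatory light chain, had 116 of its 153 UMIs in ependymal-like cells, at 156 CPM (126 to 192) in the tdTomato-positive library, against 156 CPM (62.6 to 321) and 97.8 CPM (57.0 to 157) in tdTomato-negative libraries 1 and 2. It was higher still in mural-like cells, at 1770 CPM from 14 UMIs, with a UMI in 7 of 8 cells. Endothelial-like cells were at 175 CPM of Myl9, from 6 UMIs. Mylk, the kinase that phosphorylates it, had 28 UMIs in all, of which 15 were in ependymal-like cells. In those cells it had 13 UMIs (22.1 CPM) in the tdTomato-positive library, against 0 and 2 UMIs in tdTomato-negative libraries 1 and 2. Among classes with at least 10 cells, the mean level of Mylk was highest in endothelial-like cells, at 58.3 CPM from 2 UMIs. The mean in ependymal-like cells was 11.2 CPM. Myh11, the myosin heavy chain of differentiated smooth muscle, had 0 UMIs in every barcode of every library, kept or not. In tdTomato-positive ependymal-like cells, 0 of 177 allows a share of cells with a UMI of up to 1.69%, again 3 counts of the total.

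Cald1, caldesmon, was the member with the most UMIs, 1198 in kept cells, but only 33.5% were in ependymal-like cells. Its level there was 479 CPM (425 to 539) in the tdTomato-positive library, against 467 CPM (289 to 714) and 564 CPM (458 to 687) in tdTomato-negative libraries 1 and 2. The 3 intervals overlapped. Neuroblast-like cells of the tdTomato-negative libraries reached 226 and 323 CPM, and neuron-like cells 311 and 271 CPM. Astrocyte-like cells were low in every library, at 31.1 CPM in tdTomato-positive cells, against 0 and 14.9 CPM in tdTomato-negative libraries 1 and 2. Mural-like cells held 5562 CPM, from 44 UMIs in 8 of 8 cells.

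Tropomyosins did not follow Acta2. Tpm1 was highest, among classes with at least 10 cells, in oligodendrocyte precursor-like cells, at 337 and 696 CPM in tdTomato-negative libraries 1 and 2. The 8 mural-like cells lay higher still, with 6 Tpm1 UMIs among 7911 UMIs. In ependymal-like cells it was at 133 CPM (105 to 165) in the tdTomato-positive library, against 156 CPM (62.6 to 321) and 196 CPM (135 to 273) in the tdTomato-negative libraries. Tpm2 had 49 UMIs, 11 of them in ependymal-like cells and 15 in transit-amplifying-like cells. Synpo2, which encodes the actin-bundling protein myopodin, had 48 of its 55 UMIs in ependymal-like cells. Its level there was 62.9 CPM (44.3 to 86.7) in the tdTomato-positive library, against 22.2 CPM (0.563 to 124) and 57.5 CPM (27.6 to 106) in tdTomato-negative libraries 1 and 2. Counts come from transcript 3' ends and do not separate isoforms of Tpm1, Cald1, Mylk or Synpo2, and CPM is not scaled by length.

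**Figure D3:**
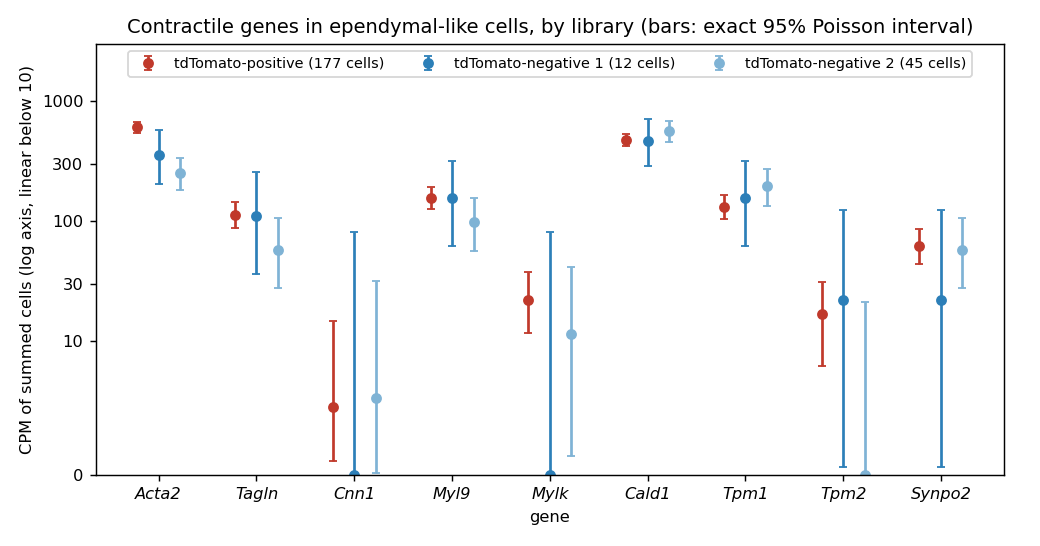
CPM of 9 members (x axis) in summed ependymal-like cells of each library (y axis, log scale, linear below 10), with exact 95% Poisson intervals; Myh11, at 0, is left out. The tdTomato-positive interval of Acta2 (544 to 671) lies above that of tdTomato-negative library 2 (184 to 340), while the intervals of the other 8 genes overlap between libraries.

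Mural cells, the smooth muscle cells and pericytes of vessels, are the textbook site of this programme, so their markers were counted beside it. The 9 markers stand for mural cells as a whole and were not used to tell smooth muscle cells from pericytes. The 8 mural-like cells were all tdTomato-positive. At the main clustering resolution they lay inside the ependymal-like cluster and were set apart after seeing the data; left in, 125 of 185 tdTomato-positive cells (67.6%) would hold an Acta2 UMI. They held 241 UMIs of the 9 mural markers (all 9 detected) in 7911 UMIs, with 1 Acta2 UMI and no Tagln, Cnn1 or Myh11 UMI. At this depth such counts do not set mural-like cells below ependymal-like cells for these genes. The same 9 markers summed to 49.3 CPM (29 UMIs, 6 markers detected) in tdTomato-positive ependymal-like cells, against 44.5 and 34.5 CPM (2 and 6 UMIs, 1 marker detected in each) in tdTomato-negative libraries 1 and 2. Kcnj8, Abcc9 and Notch3 were at 0 in these ependymal-like cells. Of the 29 tdTomato-positive UMIs, 13 were Art3, 6 Rgs5, 5 Vtn, 2 Pdgfrb, 2 Ndufa4l2 and 1 Higd1b. In both tdTomato-negative libraries the only marker detected in ependymal-like cells was Art3. Vtn and Rgs5 had the most UMIs in the mural-like cells, 102 and 50. Without the 27 tdTomato-positive ependymal-like cells that held a mural marker UMI, 278 of the 356 Acta2 UMIs remained, in 102 of 150 cells (68.0%).

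The ratio of members to each other also differed between classes of the tdTomato-positive library. Acta2 UMIs per Cald1 UMI came to 1.26 in ependymal-like cells, against 0.143 in endothelial-like cells (2 against 14 UMIs) and 0.0227 in mural-like cells (1 against 44). In the 20 endothelial-like cells, 13 of the 14 Cald1 UMIs and all 6 Myl9 UMIs were in the 7 cells with a mural marker UMI, which held no Acta2.

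Ependymal-like tdTomato-positive cells fell into 2 clusters at the finer resolution of 2.0. The 127 cells of the larger had a median of 4256 UMIs and 8.56% mitochondrial UMIs, and the 50 of the smaller a median of 1652 UMIs and 16.2%. Acta2 was at 627 CPM (559 to 700) in the larger and 482 CPM (347 to 652) in the smaller. At 1000 UMIs per cell, the expected share of cells with Acta2 was 42.6% of 121 cells of the larger (33.7% to 51.9%) and 38.9% of 39 cells of the smaller (23.7% to 55.8%). The intervals overlapped at either measure, so the clusters were not told apart by Acta2.

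Co-detection per cell was counted within the tdTomato-positive ependymal-like cells. Every other member with at least 10 UMIs there was found more often in the 124 cells with an Acta2 UMI than in the 53 without. Cald1 was in 75.8% and 58.5% of them, Myl9 in 40.3% and 22.6%, Tpm1 in 37.1% and 24.5%, Tagln in 24.2% and 11.3%, and Synpo2 in 23.4% and 11.3%. Foxj1, which is no contractile gene, showed the same order at 78.2% and 56.6%. Cells with Acta2 were also deeper, with a median of 3999 UMIs, against 2038 in cells without.

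At an equal depth of 1000 UMIs, with expected shares over all possible draws, the order was no longer shared. Cald1 was in 35.0% (23.7% to 47.7%) of the expected 66.7 cells with Acta2, against 39.5% (29.5% to 50.1%) of the 93.3 without. Myl9 was in 14.3% and 13.3%, Tpm1 in 13.7% and 12.3%, Tagln in 12.04% and 6.82%, and Synpo2 in 5.96% and 5.66%. All these intervals overlapped, and so did those at full depth (for Cald1, 67.3% to 83.0% against 44.1% to 71.9%). The intervals separated cells with and without Acta2 at neither depth. The part of depth in the full-depth offset was not tested. At full depth in tdTomato-negative library 2, Tagln was in 5 of the 20 cells with Acta2, against 2 of the 25 without. Foxj1 ran the opposite way there, in 11 of 20 and 22 of 25. At 1000 UMIs per cell the expected shares in this library were 5.95% and 3.53% for Tagln, and 21.97% and 34.92% for Foxj1. For both genes the intervals of cells with and without Acta2 overlapped at either depth.

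**Figure D4:**
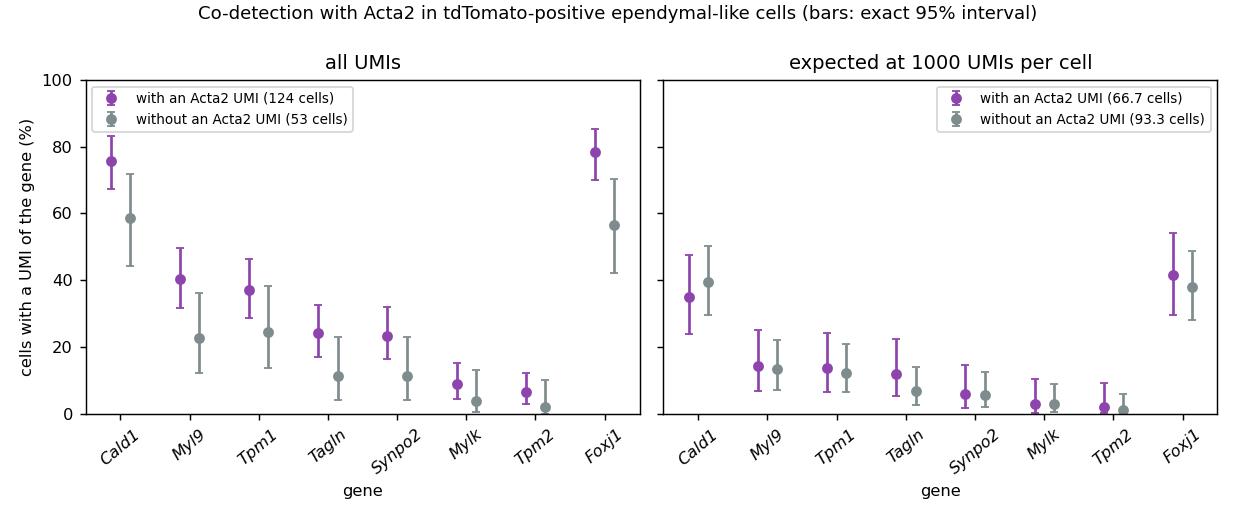
Share of tdTomato-positive ependymal-like cells with a UMI of each gene (y axis, %), in cells with (purple) and without (grey) an Acta2 UMI, for all UMIs (left) and for the expected shares at 1000 UMIs per cell (right); bars are exact Clopper-Pearson 95% intervals, on the right at the expected number of cells. The offset seen at full depth, 75.8% and 58.5% for Cald1, is not kept at 1000 UMIs (35.0% and 39.5%). For each gene shown the intervals overlap at either depth.

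Counted together, the median ependymal-like cell held UMIs of 2 members in each library, with means of 2.63 in the tdTomato-positive library, against 2.33 and 2.44 in tdTomato-negative libraries 1 and 2. The maximum was 6 members in a tdTomato-positive cell. At 1000 UMIs per cell the expected means were 1.26 in the tdTomato-positive library, against 1.01 and 0.982 in the tdTomato-negative libraries. Astrocyte-like cells averaged 0.500 members at full depth in the tdTomato-positive library, against 0.163 and 0.212 in the tdTomato-negative libraries. The 8 mural-like cells held a median of 2.5 and a mean of 2.75 members at full depth, at a median of 1055.5 UMIs. Cells with several members were thus not particular to the ependymal-like class.

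The first comparison set the tdTomato-positive gate against the tdTomato-negative gate over all kept cells, summed per library. In the tdTomato-positive library Acta2 was at 508 CPM, against 21.6 and 15.3 CPM in tdTomato-negative libraries 1 and 2, a log2 fold change of 4.90 ± 0.33 (SE; edgeR adjusted p = 2.96e-46). Tagln was at 94.4 CPM, against 5.40 and 3.35 CPM (log2 fold change 4.61 ± 0.43; edgeR adjusted p = 5.15e-25). Myl9 was at 157 CPM, against 13.0 and 7.81 CPM (4.10 ± 0.36 on the log2 scale; edgeR adjusted p = 2.51e-28). Without tdTomato-negative library 2 the log2 values of Tagln and Myl9 were 3.63 and 3.37, and Mylk came to 2.91 and 2.97 without library 1 or 2, values with no test.

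Synpo2, Mylk and Cald1 were also higher in the tdTomato-positive library. Synpo2 was at 54.1 CPM, against 2.16 and 3.90 CPM in tdTomato-negative libraries 1 and 2, a log2 fold change of 3.95 ± 0.53 (edgeR adjusted p = 1.71e-12). Mylk was at 24.99 CPM, against 1.08 and 2.51 CPM (3.52 ± 0.82; edgeR adjusted p = 0.000112), a call that DESeq2 did not make (adjusted p = 0.0629). Cald1 was at 479 CPM, against 174 and 193 CPM (1.43 ± 0.31; edgeR adjusted p = 2.08e-05). Tpm1 (132 CPM, against 65.9 and 100 CPM) had a log2 fold change of 0.66 ± 0.31 that missed the threshold (edgeR adjusted p = 0.0760) but passed it with RLE scaling (adjusted p = 0.0389). Tpm2 was at 15.3 CPM, against 9.72 and 8.09 CPM, and did not pass (edgeR adjusted p = 0.325).

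Of the 10 members, 8 passed the count filter and 6 of them were called higher at an adjusted p of 0.05. Across all 10944 genes tested, 41.8% were called in either direction, 22.9% higher and 19% lower, so a call in itself was common. Members that pass a count filter through the library where they are high had to differ, and the 6 calls are given as a description. Cnn1, with 3 UMIs against 1 in all, had a log2 ratio of 4.23 with a counting interval of 0.59 to 9.95. The gates also differed in which cells they held: 177 of 252 tdTomato-positive cells were ependymal-like, against 12 of 256 and 45 of 1121 tdTomato-negative cells. With sums over all cells, a larger share of ependymal-like cells and more RNA of a gene per cell cannot be told apart.

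The second comparison therefore set the gates against each other within ependymal-like cells only. Acta2 was again higher in the tdTomato-positive library, at 605 CPM, against 356 and 253 CPM, with a log2 fold change of 1.19 ± 0.32 that did not pass the adjustment (unadjusted p = 0.000243, edgeR adjusted p = 0.0692). Tagln (0.77 ± 0.52), Myl9 (0.56 ± 0.42) and Synpo2 (0.41 ± 0.61) had positive log2 fold changes, and Tpm1 (-0.40 ± 0.38) and Cald1 (-0.06 ± 0.31) negative ones, each with an edgeR adjusted p of 0.999. None of the 6 members tested was called, in a comparison where 12 of 4098 genes (0.293%) were, 0.171% higher and 0.122% lower. On simulated data this test recovered 11.7% of genes changed by a log2 of 1. The simulation gave all genes the same fixed spread between libraries, not estimated from these data. The recovered share need not hold for these data, and an uncalled member may still differ. The median mitochondrial share of these cells was 9.11% in the tdTomato-positive library, against 6.32% and 7.29% in the tdTomato-negative libraries, and its part in the Acta2 difference was not tested.

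With 1 library against 2, this test had 1 residual degree of freedom, and the lone tdTomato-positive library is assumed to vary like the tdTomato-negative ones. Against tdTomato-negative library 1 alone the Acta2 log2 difference was 0.76, and against library 2 alone 1.24, values with no test. Against library 1 alone the other log2 differences were 0.03 for Tagln, 0.0060 for Myl9, 1.28 for Synpo2, -0.22 for Tpm1 and 0.04 for Cald1. Against library 2 alone they were 0.92, 0.65, 0.12, -0.54 and -0.23 in the same order of genes, so that those of Tagln, Myl9 and Synpo2 rest on which library is used.

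The third comparison set ependymal-like cells against astrocyte-like cells, the other main glial class of this zone, with library as a block. Ependymal-like cells had 605 CPM of Acta2 in the tdTomato-positive library and 356 and 253 CPM in tdTomato-negative libraries 1 and 2, against 156, 0 and 3.72 CPM in astrocyte-like cells of the same libraries. Its log2 fold change was 4.46 ± 0.45 (edgeR adjusted p = 9.87e-22), and the groups did not overlap. It came to 6.12 without the tdTomato-positive library and 3.04 without tdTomato-negative library 2, called in each. Cald1, at 467 to 564 CPM against 0 to 31.1 CPM, had the largest fitted change of the members detected in both classes, 5.17 ± 0.40 on the log2 scale (edgeR adjusted p = 7.05e-36).

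Tagln had 82 UMIs in ependymal-like cells, against 0 in astrocyte-like cells, so that its log2 fold change against astrocyte-like cells is a lower bound of 4.49, taken against a floor of 3 counts over the 276 cells (edgeR adjusted p = 3.09e-07; DESeq2 adjusted p = 0.291). From the tdTomato-negative libraries alone, with 15 UMIs against 0, the bound was 3.85. Myl9, at 97.8 to 156 CPM against 9.29 to 31.1 CPM, was higher by 2.94 ± 0.58 (edgeR adjusted p = 5.03e-06). Tpm1, at 133 to 196 CPM against 31.1 to 52.7 CPM, was higher by 1.74 ± 0.38 (edgeR adjusted p = 4.82e-05). Of the 10 members 5 passed the count filter and each of these was called higher, in a fit where 16.3% of all 3811 genes tested were called higher, 11.8% lower and 28.1% in either direction. Tagln, with 0 UMIs in astrocyte-like cells, passed the filter through the ependymal-like sums and had to differ, so the count is a description. Synpo2 did not pass the filter, and its 48 UMIs against 3 gave a log2 ratio of 3.72 (2.09 to 6.05), or 3.41 (1.49 to 5.89) from 11 against 3 in the tdTomato-negative libraries. Without tdTomato-negative library 2, the library with the most cells, 3 members passed the filter and 2 were called, Acta2 (adjusted p = 0.000762) and Cald1 (adjusted p = 6.15e-07).

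The fourth comparison set ependymal-like cells against neuroblast-like cells, the migrating neuronal progeny of this zone, in the same fit. The tdTomato-positive library held 1 neuroblast-like cell and gives no such sum, so ratios of UMIs are taken from the tdTomato-negative libraries alone. There Acta2 had 16 and 44 UMIs in ependymal-like cells of libraries 1 and 2, against 1 and 0 in neuroblast-like cells, a log2 ratio of 7.74 with a counting interval of 5.203 to 13.1 (fit over all sums: edgeR adjusted p = 2.10e-24). Acta2 was called with each library left out in turn. Tagln had 15 UMIs against 1, a log2 ratio of 5.74 (3.04 to 11.1; edgeR adjusted p = 6.42e-06; DESeq2 adjusted p = 0.365). Myl9 had 24 UMIs against 3, a log2 ratio of 4.83 (3.11 to 7.20; edgeR adjusted p = 1.61e-08).

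Cald1 and Tpm1 differed less from neuroblast-like than from astrocyte-like cells in fitted size, a contrast between the comparisons that was not tested. Cald1 was at 467 to 564 CPM in ependymal-like cells, against 226 and 323 CPM in neuroblast-like cells of tdTomato-negative libraries 1 and 2, a log2 fold change of 0.84 ± 0.26 (edgeR adjusted p = 0.00514). Tpm1 was at 133 to 196 CPM, against 47.9 and 91.8 CPM (1.16 ± 0.36; edgeR adjusted p = 0.00559). Neither call was kept when tdTomato-negative library 1 or 2 was left out, with adjusted p between 0.208 and 0.374, and Cald1 also missed the threshold without a count filter (adjusted p = 0.0589). The 5 members that passed the count filter were called higher, in a fit where 21.7% of all genes were called higher, 16.5% lower and 38.2% in either direction. Acta2, Tagln and Myl9, with 1 to 3 UMIs in neuroblast-like cells, passed the filter through the other sums, and this count too is a description. Without library 2 the count was 1 of 3 tested, Acta2 (adjusted p = 0.000574). Synpo2 had 11 UMIs against 0 in the tdTomato-negative libraries, a log2 ratio of at least 3.70 over a floor of 3 counts for the class.

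**Figure D5:**
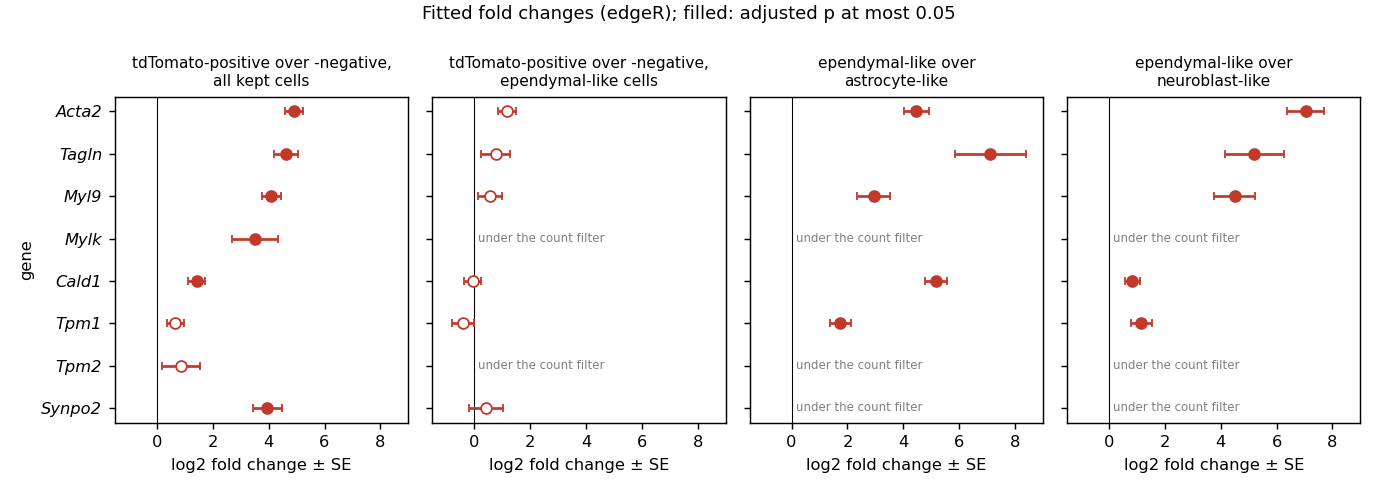
Fitted log2 fold changes with SE (x axis) of 8 members (y axis) in the 4 comparisons, edgeR quasi-likelihood fit; filled points have an adjusted p of at most 0.05. Acta2 runs from 1.19 between gates within ependymal-like cells to 7.04 against neuroblast-like cells; the Tagln point against astrocyte-like cells and the Acta2, Tagln and Myl9 points against neuroblast-like cells rest on 0 to 3 counts in the lower class.

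A list of 47 other contractile and actin-regulating genes was counted in the same fits. Over all kept cells, 14 were higher (37.8%) and 7 lower (18.9%) in the tdTomato-positive library of 37 tested, beside 22.9% and 19% of all genes, with a median log2 fold change of 0.59, beside -0.07 over all genes. Those with the largest changes were Synm (synemin, an intermediate filament protein; 3.81 ± 0.38), Tagln2 (3.35 ± 0.31), the non-muscle myosin heavy chains Myh9 (3.18 ± 0.41) and Myh14 (3.09 ± 0.47), Actn1 (alpha-actinin; 3.00 ± 0.37) and the SRF cofactor Mkl2 (2.66 ± 0.48). By group, 3 of 6 myosin chains rose and 1 fell, 2 of 6 tropomyosins, calponins and transgelins rose and 1 fell, and both tested actins, the cytoplasmic Actb and Actg1, fell. Of the dense body, crosslinking and intermediate filament genes 5 of 11 rose and 1 fell, of the light chain regulators 2 of 10 rose and 2 fell, and both tested genes of SRF and its cofactors rose. The light chain regulators, at 20% each way, were thus called about as often as all genes, and groups this small give no more than a count. Without tdTomato-negative library 2 Tagln2 came to 3.98 and Mkl2 to 2.03. Within ependymal-like cells none of the 24 tested was called, with a median of 0.13, beside -0.000527 over all genes.

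Against astrocyte-like cells, 13 of 34 tested genes of that list were higher in ependymal-like cells (38.2%) and 2 lower (5.88%), beside 16.3% and 11.8% of all genes (median 0.98, beside 0.01 over all genes). Csrp2, a LIM protein (5.85 ± 0.44), Tagln2 (5.25 ± 0.55, and 7.45 without tdTomato-negative library 2), Synm (3.60 ± 0.73) and the calmodulin gene Calm2 (2.48 ± 0.23) were higher, and Tagln3 (-3.33 ± 0.37) and Csrp1 (-2.63 ± 0.26) lower. Against neuroblast-like cells, 13 of 34 were higher (38.2%) and 5 lower (14.7%), beside 21.7% and 16.5% of all genes (median 0.58, beside -0.0048 over all genes). Tagln2 (5.49 ± 0.58, and 4.36 without tdTomato-negative library 2) and Actn1 (2.50 ± 0.70) were higher and Tagln3 (-3.68 ± 0.38) lower, as were both cytoplasmic actins. Synm, Lpp and Mkl2 were also called higher but rested on 1, 2 and 3 UMIs in neuroblast-like cells, and Lpp and Mkl2 lost the call with the stricter cell filter (adjusted p = 0.180 and 0.287). Calls in the last 2 comparisons share the ependymal-like sums.

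The genes whose pattern was most like that of Acta2, by Pearson correlation of log2(CPM + 10) over 21 sums of a class in a library, were Ccdc113 (r = 0.961), Anxa11 (0.938), Spint2 (0.937), Dynlrb2 (0.923) and Sntn (0.918), of 9521 genes with at least 50 UMIs. Ccdc113 and Sntn encode proteins of cilia, and Dynlrb2 a dynein light chain. Among the members, Tagln ranked 89th (r = 0.837), Myl9 138th (0.811) and Synpo2 175th (0.797), whereas Cald1 (0.251) and Tpm1 (0.0023) were far down. The sums share libraries and the 3 ependymal-like sums stand apart from the rest, so that r mostly records that separation, and no p is given. Ccdc113 was at 286 CPM in tdTomato-positive ependymal-like cells, against 378 and 259 CPM in the tdTomato-negative ones.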

How the data were processed

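Single-cell libraries were made from sorted cells with 10x Single Cell 3' v2 chemistry. The authors deposited raw UMI counts per gene and barcode, 1 matrix per library, not normalised. The submitters' processing notes name STAR, Cell Ranger and Seurat 1.4.0.15 and the builds GRCm38.p5 and mm10, with their order and the cell-calling rule not given in the sources used here. Coordinates are GRCm38 (GENCODE vM21).

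Kept barcodes had 300 or more genes and no more than 25% mitochondrial UMIs. Cells were scaled to 10000 UMIs each and clustered with scanpy 1.11.5 (1000 variable genes, 20 components, 15 neighbours, Leiden resolution 1.0, seed 1), using genes with an even last Ensembl digit plus 136 markers and none of the 57 contractile genes. A cluster was named from at least 3 of its markers. The 8 mural-like cells lay inside the ependymal-like cluster at resolution 1.0 and were set apart from it as the cluster they formed at resolution 2.0. This was chosen after seeing the data. Scrublet called 9, 2 and 3 cells as doublets among tdTomato-positive cells and tdTomato-negative libraries 1 and 2. These cells were kept.

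Counts were summed per library (3 sums, 1 residual degree of freedom), or per library and class with at least 10 cells (21 sums, 9 residual degrees of freedom), and tested with edgeR 4.0.16 (quasi-likelihood, filterByExpr, then TMM, Benjamini-Hochberg at 0.05 over all tested genes). Class comparisons used the genes kept out of the clustering. Scripts were tested on simulated data, in which all genes had the same fixed spread between sums, not estimated from these data. Of genes changed there by a log2 of 1, 0% were recovered between gates over all cells and 11.7% within ependymal-like cells. Of those changed by a log2 of 2, 38.2% and 76.3% were recovered. Against astrocyte-like cells the shares were 28.6% and 97.5%. Alternatives were RLE scaling, no count filter, DESeq2 1.42.0, cell filters, cluster resolutions and leaving out libraries. Shares have exact Clopper-Pearson and levels exact Poisson 95% intervals. Limits for a count of 0 are 3 counts of the total. Values at 1000 UMIs per cell are exact expectations over all possible draws without replacement (hypergeometric), a choice made after seeing that a single draw moved them, with intervals at the expected count. Cells under 1000 UMIs (41, 12 and 6 of all kept cells) were left out there. The members and gene lists were chosen with earlier results of these data known. All members are named. Of the other contractile genes, at most 6 per comparison are named, those with the largest changes that were called and lay on 1 side of every library compared.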

Additional observations from a re-analysis of the deposited data

Results flagged for a closer look

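Of the 314 barcodes of the tdTomato-positive library, 62 were left out by the cell filter, 59 of them for over 25% mitochondrial UMIs. These barcodes held 20 Acta2 UMIs, or 294 CPM (exact 95% Poisson interval 180 to 454), in 14 barcodes. They are listed because this level was above that of the kept cells of either tdTomato-negative library (21.6 and 15.3 CPM). It was below the 508 CPM of the kept cells of the tdTomato-positive library itself. The 62 barcodes also held 13 Cald1 and 4 Myl9 UMIs and no Myh11, Cnn1 or Mylk UMI. In the 3 and 6 barcodes left out of tdTomato-negative libraries 1 and 2, Acta2 had 3 and 0 UMIs. For library 1 this came to 800 CPM (165 to 2337), from a single barcode. No group here had 4 or more libraries, so no library was checked as an outlier.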

How the results depend on the processing

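No paired analysis was possible because the gates share only 1 replicate number, the tdTomato-positive gate having 1 library. The class comparisons had library as a block throughout. Of 497 values recomputed under an alternative, 461 kept their direction and their side of the threshold or stayed within their error. The number of members called over all kept cells ran from 5 (DESeq2) to 7 (RLE scaling), beside 6. Within ependymal-like cells it was 0 under every alternative run. Against astrocyte-like cells it ran from 2 to 6, and against neuroblast-like cells from 1 to 6. The lowest in each came from leaving out tdTomato-negative replicate 2: 2 and 1 members called, with 3 tested. The range over libraries left out was 2 to 6 against astrocyte-like and 1 to 5 against neuroblast-like cells. With 1193 genes left of 3811, fewer were tested.

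Over all genes, DESeq2 called 1866 between gates over all cells where edgeR called 4579. Within ependymal-like cells it called 0 where edgeR called 12 (17 and 133 at an unadjusted p under 0.05), and edgeR called 0 without the cells holding a mural marker UMI (81 at an unadjusted p under 0.05) and 17 with the mural-like cells left in, an alternative chosen after seeing the data. Against astrocyte-like cells edgeR called 1072, against 678 without tdTomato-negative library 1 and 227 without library 2. Against neuroblast-like cells it called 1455, against 799 and 228. Cald1 within ependymal-like cells changed sign around 0, from -0.06 to 0.043 without the count filter and 0.14 with the mural-like cells left in, and was called in neither. At 1000 UMIs per cell the Acta2 share moved beyond its interval, to 41.7% in the tdTomato-positive library and 19.9% in tdTomato-negative library 2. A single random draw, added after seeing the data, gave 45.6% and 13.3%, whose intervals did not overlap (37.7% to 53.7%, against 5.05% to 26.8%), whereas those of the expected shares did. Acta2 kept its calls and direction under every alternative run with a test. Depth was examined by the values at 1000 UMIs, and causes were not tested. Depth limits what can be said of Myh11, with 0 UMIs, and of Cnn1, Mylk, Tpm2 and Synpo2, with 4 to 55 each.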
